A study of Bos taurus with 20 samples.

Results

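The distal end of bovine chromosome 18 is described here in 20 whole conceptuses, through the 117 genes of that region that had a measurable RNA level, out of the 27607 genes of the count files. Members were chosen by position and by measured level: a start from 60000000 to 66000000 on chromosome 18 of the assembly ARS-UCD1.2, more than 1 exon, and a mean of at least 1 CPM (counts scaled to a library of 1000000) over the 19 libraries with over 1000000 counts. The region holds 257 genes, of which 211 have more than 1 exon, and it runs to the last annotated base of the chromosome, 65813823. The limit was set on the mean over control and IL6 libraries together, so a member near it can have passed through the group where it was higher. The direction of such a member with IL6 is partly set by the choice of members. The members just inside the limit, at 61501761, 60528443 and 65720236, averaged 1.01, 1.02 and 1.13 CPM, and the genes just outside it, at 61272049, 65356584 and 61607183, averaged 0.840, 0.960 and 0.990 CPM.

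The embryos were produced by fertilisation in vitro and received either recombinant bovine interleukin 6 (IL6, a cytokine that signals through JAK kinases and STAT3) at 100 ng/ml or its carrier on day 5. Treated culture lasted until blastocyst collection for transfer on day 7.5, so IL6 was present before transfer and the RNA was measured in the later conceptus. No genetic change is given in the labels for any group. The groups were 6 ovoid control (3 females, 3 males), 6 ovoid IL6 (4 females, 2 males), 4 tubular control (1 female, 3 males) and 4 tubular IL6 conceptuses (2 females, 2 males), with 1 library for each. The ovoid and tubular shapes are stages of the lengthening that a ruminant conceptus goes through before implantation. Titles open with a code that the labels do not explain: all libraries of c201, c5036 and c8086 are controls and all of c6186 and c9007 received IL6, so the code and the treatment cannot be told apart by design. Where conceptuses of 1 code share a source, p-values for IL6 are too small.

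As background, this end of the chromosome is known in mammals for clusters of genes for KRAB zinc finger proteins and for NLRP proteins. KRAB zinc finger proteins bind DNA through arrays of zinc fingers, and many silence transposable elements by recruiting the co-repressor TRIM28 and histone methylation. Such genes arise by tandem duplication and lie side by side in large families. Several NLRP genes are active in the oocyte and the early embryo, where some of their proteins belong to a complex beneath the egg membrane. In the RefSeq gene table at hand, of the assembly ARS-UCD2.0, chromosome 18 held 92 of 303 protein-coding genes with a symbol that starts with ZNF (30.4%) and 6 of 11 that start with NLRP (54.5%), against 5.69% of all protein-coding genes. The count files pair identifiers with positions and not with names, and 0 of 27607 identifiers matched that table. Whether a given member is a zinc finger or NLRP gene could therefore not be checked, no role is given to any member, and the members are called by their position.

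The libraries held 329666 to 13940103 counts. Ovoid control replicate 3, with 329666, stood apart and had a count in 94 members, against 111 to 117 in the others. The 6 libraries of c6186 held 2298491 to 6262473 counts and the 4 of c9007 held 8589036 to 11366747. Members took 0.575% ± 0.0691 of the counts (SD, n = 5, without ovoid control replicate 3) in ovoid control, 0.486% ± 0.0939 (SD, n = 6) in ovoid IL6, 0.560% ± 0.0723 (SD, n = 4) in tubular control and 0.50% ± 0.0780 (SD, n = 4) in tubular IL6 conceptuses, and these ranges overlapped. With that replicate the ovoid control share was 0.541% ± 0.103 (SD, n = 6). In whole conceptuses, fewer cells of a type and less RNA per cell cannot be told apart, and the labelled tissue could not be checked against marker genes, because the files name no genes.

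Most members were low, and a few were high. The median member averaged 8.84 CPM, with a range of 1.01 to 602 CPM. Genes chosen by the same exon and CPM limits had a median of 20.9 CPM on the rest of chromosome 18 (638 genes) and 28.1 CPM among all genes (12967). Per kb of exon, the medians were 5.91, 9.27 and 11.7 CPM per kb. In all, 62 members lay under 10 CPM, 42 from 10 to 100 CPM and 13 at 100 CPM or more. The 5 highest members made up 43.6% and the 13 highest 68.9% of the summed CPM of the members. Members had a median of 5 exons, against 9 on the rest of the chromosome and 10 among all genes, and 59 of 117 had at most 5 (50.4%, against 24.0% of all genes).

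The 5 highest members per kb of exon lay in the last 4 of the 6 Mb of the region, 2 of them side by side. The gene at 65660240 to 65665846 had 689 CPM per kb, the one at 62099120 to 62101918 had 560, the one at 63196980 to 63204349 had 460, the one at 65769086 to 65775447 had 186 and the one at 62089250 to 62093134 had 169. The gene at 63196980 also had the highest mean level, 602 CPM. It lay between 582 and 790 CPM in the 6 ovoid controls (median 704), and between 263 and 697 CPM in the 6 ovoid IL6 conceptuses (median 618). Tubular controls had 688, 715, 698 and 649 CPM, and tubular IL6 conceptuses had 234, 455, 513 and 647 CPM. Every tubular IL6 value lay below every tubular control value, and 2 libraries of c6186, ovoid IL6 replicate 2 and tubular IL6 replicate 1, held the lowest values. The genes at 62099120 and 65660240 were lowest in the same pair of libraries, at 112 and 114 CPM for the first and 166 and 139 CPM for the second, against group medians of 284 to 452 and 371 to 586 CPM.

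**Figure D1:**
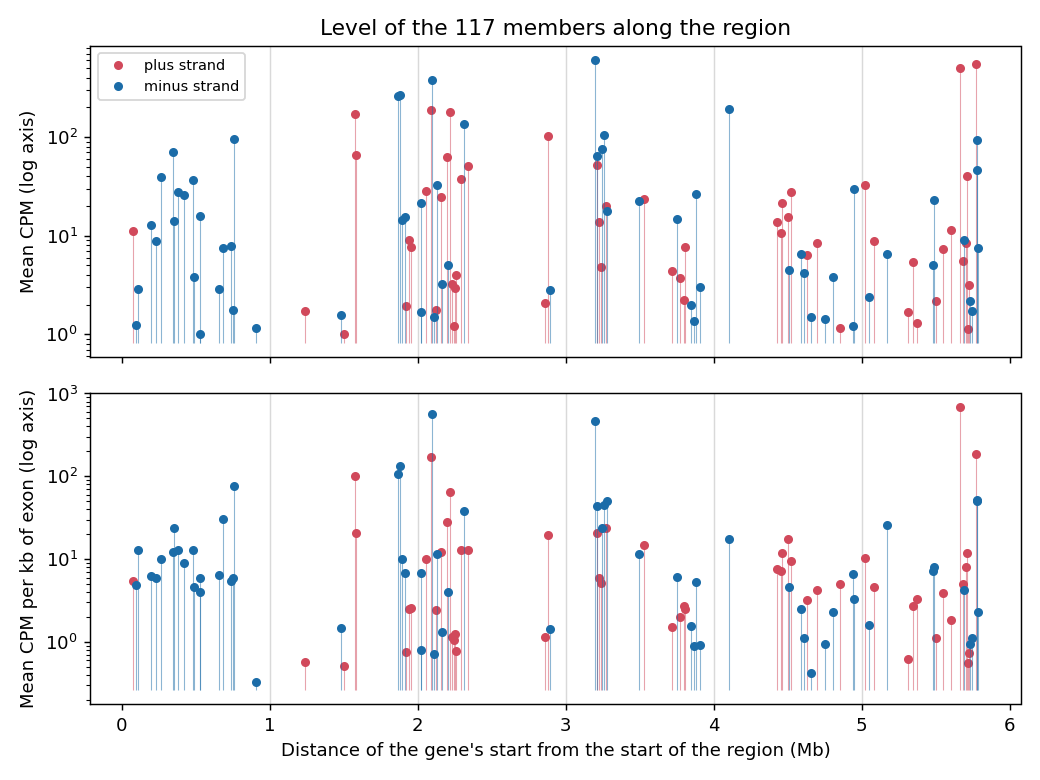
Each point is 1 of the 117 members, placed by the distance of its start from the start of the region (Mb), with its mean CPM (upper panel) and mean CPM per kb of exon (lower panel) over 19 libraries on log axes, coloured by strand. High members stand among low ones, and 3 gaps without members are 305.9 to 506.8 kb wide.

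The region was divided into 6 stretches of 1 Mb, counted from 60000000. They held 20, 12, 23, 20, 17 and 25 members, with median levels of 10.04, 11.7, 21.7, 16.4, 6.49 and 7.40 CPM. In the first stretch 19 of the 20 members lay on the minus strand and none reached 100 CPM. The third stretch held 5 of the 13 members at 100 CPM or more. The widest gap between members, 506.8 kb from 62355536 to 62862296, held 20 genes with more than 1 exon, of which the highest averaged 0.803 CPM. The next gaps, 313.7 kb from 60925131 to 61238819 and 305.9 kb from 64118980 to 64424836, held 5 genes each. Of the members, 39 overlapped another annotated gene, 20 of them one on the opposite strand, and 11 shared exon bases with another gene. Counting was over exons and used no strand, so reads in shared exon bases cannot be told apart, and genes in families of near-identical copies are uncertain. Whether reads from the introns of a gene fell on the exons of an overlapping one was not tested.

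Between IL6 and control conceptuses, more members were higher than lower with IL6 in both shapes, and no member passed the threshold with edgeR. Averaged over shapes, 76 members had a positive and 41 a negative log2 fold change, with a median of 0.18, while all genes tested had a median of -0.00 and the rest of chromosome 18 one of -0.02. In ovoid conceptuses 74 were positive and the median was 0.14 (all genes 0.02), and in tubular conceptuses 73 were positive and the median was 0.14 (all genes 0.00). These comparisons share samples, since the average is made of the other two. With edgeR's quasi-likelihood test and Benjamini-Hochberg adjustment over 14875 genes, 0 of 117 members and 0% of all genes were called in each of the 3 IL6 comparisons.

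At an unadjusted p under 0.05 (edgeR), 21 members were higher and 3 lower with IL6 averaged over shapes, beside 7.87% and 2.82% of all genes. In ovoid conceptuses 13 members were higher and 2 lower, beside 5.33% and 3.01% of all genes. In tubular conceptuses 6 were higher and 1 lower, beside 1.92% and 0.598% of all genes. DESeq2 called 1 member in ovoid conceptuses (0.578% of all genes), 0 in tubular conceptuses (0%) and 3 in the average (0.961%). Adjusted p-values from edgeR and DESeq2 thus placed few or no members past the threshold, and the counts at an unadjusted p are a description.

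The direction was not spread evenly along the region. Averaged over shapes, 19 of 20 members of the first stretch were positive, with a median log2 fold change of 0.56, and 10 of them had an unadjusted p under 0.05, all higher. Those 10 include the members at 60094269 and 60528443, which passed the limit of 1 CPM through the IL6 libraries, as given below. In the fifth stretch 17 of 17 were positive, with a median of 0.44 and 5 at an unadjusted p under 0.05. In the sixth 21 of 25 were positive (median 0.18) and in the fourth 11 of 20 (median 0.04). In between, 8 of 12 members of the second stretch (median -0.10) and 19 of 23 of the third (median -0.18) were negative. The stretches were cut at round positions, and the runs below were picked after their values were seen.

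**Figure D2:**
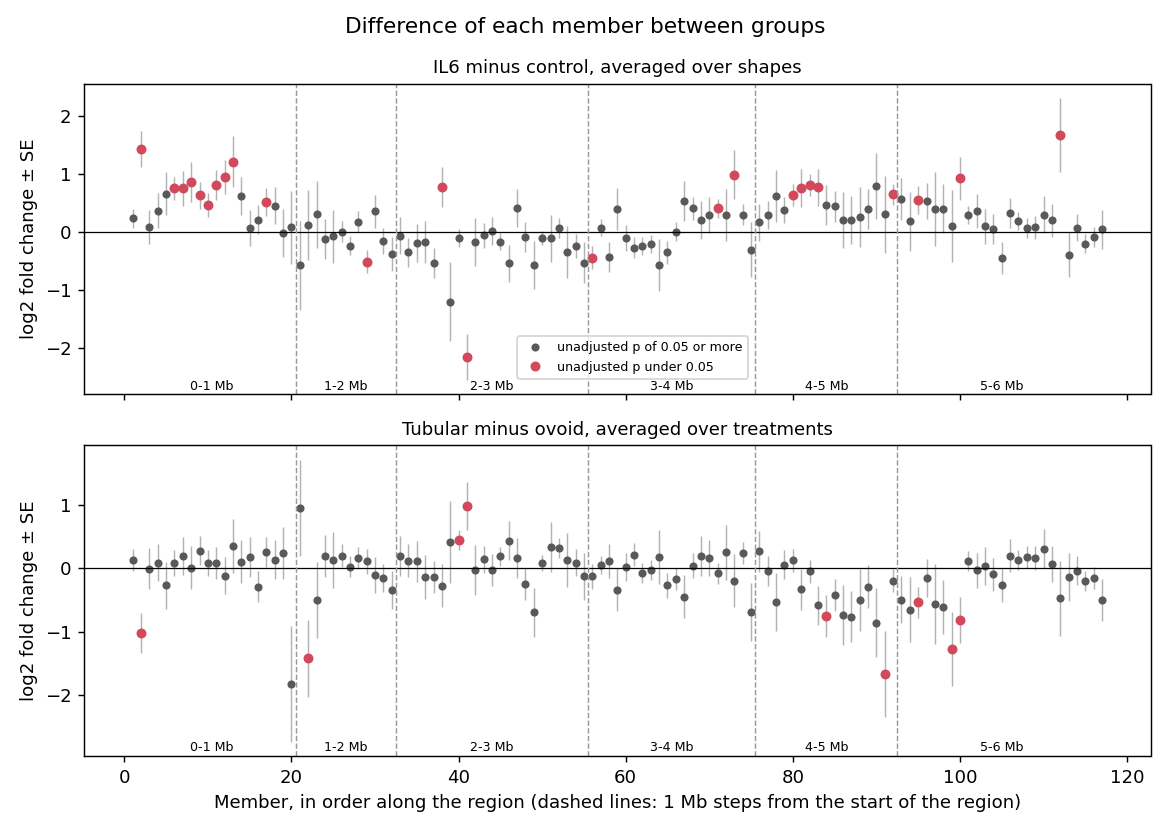
Points are the log2 fold changes of the 117 members with SE (edgeR, 20 libraries), in order along the region, for IL6 minus control (upper panel) and tubular minus ovoid (lower panel); red marks an unadjusted p under 0.05, and dashed lines mark steps of 1 Mb. Members 6 to 13 and 80 to 83 form runs of higher values with IL6, member 41 has the lowest value, and members 81 to 100 lie below 0 for shape.

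Members 6 to 13, from 60268945 to 60653111, were 8 neighbours in a row with an unadjusted p under 0.05, with log2 fold changes of 0.46 to 1.2 (averaged over shapes). All 8 lie on the minus strand and 7 overlap another gene by span, while 2 share exon bases with one. Neighbours of this stretch were correlated over libraries, as given below, so the 8 do not count as separate observations. Member 13, at 60528443, averaged 1.02 CPM over the 19 libraries but 0.531 CPM over the 5 ovoid controls among them. Tubular controls had 0.305 to 1.04 CPM of it. It thus passed the limit of 1 CPM through the IL6 libraries, and its place in the run is partly set by that limit. Ovoid control replicate 3, the shallow library, had a median log2 difference of -3.27 from the mean of these members. Without it all 8 stayed higher with an unadjusted p under 0.05 (median 0.68, against 0.77 with it). Without c6186, 7 were positive, with a median of 0.25 and 0 at an unadjusted p under 0.05. The gene at 60268945 to 60333737 overlaps no other gene. It ranged from 14.6 to 40.9 CPM in ovoid control (median 26.7) and from 25.8 to 66.6 CPM in ovoid IL6 conceptuses (median 49.6). It had 32.5, 27.9, 33.3 and 25.9 CPM in tubular controls and 61.1, 60.4, 41.1 and 39.0 CPM in tubular IL6 conceptuses. The tubular groups did not overlap and the ovoid groups did. Its log2 fold change was 0.74 ± 0.20 averaged over shapes (SE, edgeR adjusted p = 0.211).

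By title code, that gene averaged 24.7 CPM in c201, 31.6 in c5036 and 29.6 in c8086, the controls, 58.3 in c6186 and 34.2 in c9007. Its values in c6186, 47.6 to 66.6 CPM, lay above every control library, while those of c9007 spanned 25.8 to 41.1 CPM, against 14.6 to 40.9 CPM over all controls. In c9007 the ovoid libraries, at 25.8 and 30.8 CPM, lay within the ovoid control range, and the tubular ones, at 41.1 and 39.0 CPM, lay above every tubular control. Without c6186 its log2 fold change was 0.12 ± 0.20, and without c9007 it was 0.97 ± 0.18 (SE, edgeR adjusted p = 0.0148). The gene at 60479470 to 60653111, which overlaps 4 others, showed the same order, with 51.2 CPM in c6186, 37.7 in c9007 and 21.6 to 29.7 in the control codes. Tubular controls had 21.3, 22.9, 33.4 and 26.0 CPM of it and tubular IL6 conceptuses 58.5, 50.5, 49.2 and 34.8 CPM, with no overlap.

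ENSBTAG00000053759 (60094269 to 60259210) had the smallest p among members of the first stretch in the average over shapes. It is a low gene that overlaps 5 genes and held 3 to 19 counts in the libraries over 1000000 counts, so its fold changes are uncertain. It averaged 1.23 CPM over the 19 libraries but 0.976 CPM over the 5 ovoid controls among them, and less in tubular controls. It thus passed the limit of 1 CPM through the IL6 libraries, and its difference with IL6 is partly set by the choice of members. Ovoid controls ranged from 0 to 1.45 CPM (median 0.823) and ovoid IL6 conceptuses from 0.877 to 3.08 CPM (median 1.87). Tubular controls had 0.282, 0.252, 0.611 and 0.277 CPM and tubular IL6 conceptuses 1.54, 1.27, 0.846 and 1.34 CPM, with no overlap. The log2 fold change was 1.42 ± 0.31 averaged over shapes (SE, edgeR adjusted p = 0.205) and 1.78 ± 0.48 in tubular conceptuses (SE, edgeR adjusted p = 0.99967). Without c6186 the average was 1.19 ± 0.38 (SE, edgeR adjusted p = 0.878).

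In the fifth stretch, ENSBTAG00000017872 (64520900 to 64525539) overlaps 1 gene on the opposite strand, its neighbour at 64505119 to 64540693. It ranged from 11.6 to 26.3 CPM in ovoid control (median 21.4) and from 19.7 to 60.0 CPM in ovoid IL6 conceptuses (median 31.6). Tubular controls had 20.6, 17.4, 20.8 and 25.1 CPM, and tubular IL6 conceptuses 54.3, 29.0, 27.9 and 26.2 CPM. The tubular groups did not overlap and the ovoid groups did. The log2 fold change was 0.81 ± 0.24 in ovoid (SE, edgeR adjusted p = 0.383), 0.80 ± 0.28 in tubular (SE, edgeR adjusted p = 0.99967) and 0.80 ± 0.18 averaged over shapes (SE, edgeR adjusted p = 0.205, DESeq2 adjusted p = 0.0109). Without c6186 the average was 0.45 ± 0.22 (SE, edgeR adjusted p = 0.878), and without c9007 it was 0.95 ± 0.20 (SE, edgeR adjusted p = 0.0230).

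Its neighbours had values of the same sign. Members 80 to 83, from 64499682 to 64595246, had log2 fold changes of 0.62 to 0.80, and 29 members in a row from 64099930 to 65617689 were positive. Without c6186, members 80 to 83 had 0.38 to 0.61, with 0 at an unadjusted p under 0.05, against 4 in the main fit. Of members 81 to 100, all positive in the main fit, 18 stayed so without c6186 and 16 without c9007. The gene at 64948170 to 65182761, which overlaps 7 others, had a log2 fold change of 0.88 ± 0.23 in ovoid conceptuses (SE, edgeR adjusted p = 0.371). There it ranged from 25.5 to 73.9 CPM with IL6 (median 33.8) and from 10.9 to 33.3 CPM in controls (median 21.9). The value of 73.9 CPM belonged to ovoid IL6 replicate 1, and without that library the fold change was 0.66. A positive run of this length holds pairs that are correlated with each other over libraries, as given below, so its members do not count as separate observations.

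The lowest value with IL6 belonged to ENSBTAG00000022813 (62159120 to 62167311), which overlaps no annotated gene. It was the one member whose ovoid groups did not overlap with IL6 lower, where 0.0672% of all genes did so. Ovoid controls had 53.6, 17.5, 73.1, 14.9, 55.5 and 24.6 CPM, and ovoid IL6 conceptuses had 1.75, 12.97, 6.13, 2.55, 5.28 and 5.81 CPM. In tubular conceptuses the values were 54.9, 53.9, 25.3 and 68.1 CPM in controls and 5.30, 20.9, 21.5 and 19.7 CPM with IL6, again with no overlap. Averaged over shapes its log2 fold change was -2.16 ± 0.40 (SE, edgeR adjusted p = 0.205, DESeq2 adjusted p = 2.19e-04). Both IL6 codes were low, at 8.26 CPM in c6186 and 13.1 in c9007, against 39.8 to 47.2 CPM in the control codes, and without c6186 the value was -2.01 ± 0.48 (SE, edgeR adjusted p = 0.806).

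The genes beside it did not share its size. Its neighbour at 62167350 to 62190012 lies 0.039 kb beyond its end on the other strand and had a log2 fold change of -0.18 ± 0.41 averaged over shapes (SE, edgeR adjusted p = 0.911). Over 19 libraries that pair had a Pearson r of 0.23 (permutation adjusted p = 0.445) and a Spearman rho of 0.31. The neighbour on the other side, at 62131439 to 62138720, had one of -0.12 ± 0.15 for IL6 (SE, edgeR adjusted p = 0.827). That pair had r = 0.66 (permutation adjusted p = 0.00862), rho = 0.58, and r = 0.43 without the 2 libraries farthest from the median.

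ENSBTAG00000012333 (61915345 to 61960163) had the next smallest p on the lower side in the average over shapes, and it overlaps 3 genes on the opposite strand. Ovoid controls ranged from 11.7 to 21.4 CPM (median 18.5) and ovoid IL6 conceptuses from 5.94 to 15.7 CPM (median 12.0). Tubular controls had 18.7, 21.1, 13.7 and 23.3 CPM and tubular IL6 conceptuses 10.4, 11.1, 11.8 and 19.9 CPM. The groups overlapped in both shapes. Averaged over shapes it stood at -0.52 ± 0.20 on the log2 scale (SE, edgeR adjusted p = 0.370), and at -0.04 without c6186.

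**Figure D3:**
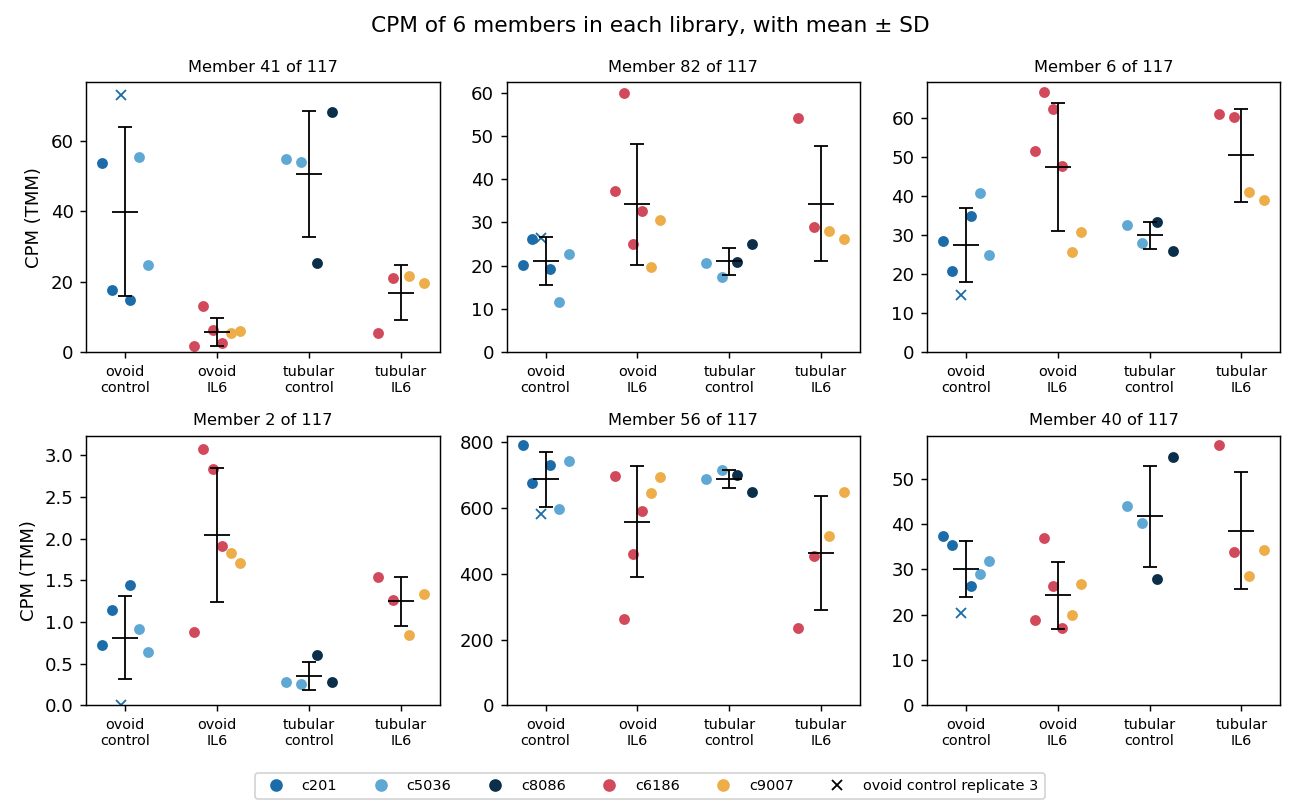
CPM in each of the 20 libraries for members 41 (62159120), 82 (64520900), 6 (60268945), 2 (60094269), 56 (63196980) and 40 (62131439), by group, coloured by title code, with the mean ± SD in black and ovoid control replicate 3 as a cross. Member 41 is lower in both IL6 codes, and the high values of member 6 belong to c6186.

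Counted over all members, groups that do not overlap were few. In ovoid conceptuses 0 members were higher with IL6 in every library, beside 0.148% of all genes. Without ovoid control replicate 3 there were 1 higher, at 63806826 to 63819766, and 1 lower, beside 0.35% and 0.242%. In tubular conceptuses 5 members were higher in every IL6 library (2.39% of all genes) and 4 were lower (1.65%). The 4 lower ones included, beside members 41 and 56, the genes at 62260692 and 65779277.

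The level of whole stretches was then followed by library, as the median over members of the log2 difference from each member's mean over 19 libraries. In the first stretch it lay between -0.48 and 0.14 in 5 ovoid controls, between -0.12 and 0.78 in ovoid IL6, between -0.54 and 0.22 in tubular controls and between -0.14 and 0.57 in tubular IL6 conceptuses, so the groups overlapped. Ovoid control replicate 3 stood at -2.65, and without it 19 of the 20 members were still positive with IL6 averaged over shapes, with a median of 0.52 and 10 at an unadjusted p under 0.05. The c6186 libraries averaged 0.42, those of c9007 0.01, and those of c201 (without ovoid control replicate 3), c5036 and c8086 -0.22, -0.34 and -0.05. Without c6186, 14 of the 20 members stayed positive with a median of 0.14 and 1 at an unadjusted p under 0.05, and without c9007, 19 did, with a median of 0.68. With the title code as a random block (limma), 19 were positive, with a median of 0.44 and 5 at an unadjusted p under 0.05. In ovoid conceptuses that fit gave 1 member at such a p in this stretch, against 5 in the main fit. The second and the third stretch lost their direction without c6186, with 9 of 12 and 13 of 23 members positive. In the sixth stretch 13 of 25 members were positive without c9007 (median 0.09) and 19 without c6186 (median 0.25). The c6186 libraries are also shallower than those of the other codes bar c201, and the part of depth in these differences was not tested.

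In the fifth stretch the libraries of 1 group lay further apart than the groups did. Its level ranged from -0.83 to 1.39 in ovoid IL6 and from -1.22 to 0.48 in 5 ovoid controls. Tubular IL6 conceptuses ranged from -0.60 to 0.63 and tubular controls from -0.50 to 0.07. The average was 0.15 in c6186 and 0.16 in c9007, against 0.19 in c201, -0.39 in c5036 and -0.25 in c8086. The IL6 direction held without either IL6 code, with 16 of 17 members positive and a median of 0.53 without c6186 and of 0.30 without c9007. These values are averaged over shapes, and that median moved with the control codes, from 0.24 without c5036 to 0.81 without c201. In ovoid conceptuses alone the median moved further, from 0.03 without c5036 to 1.16 without c201. In tubular conceptuses it ranged from 0.34 to 0.63 over the alternatives.

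**Figure D4:**
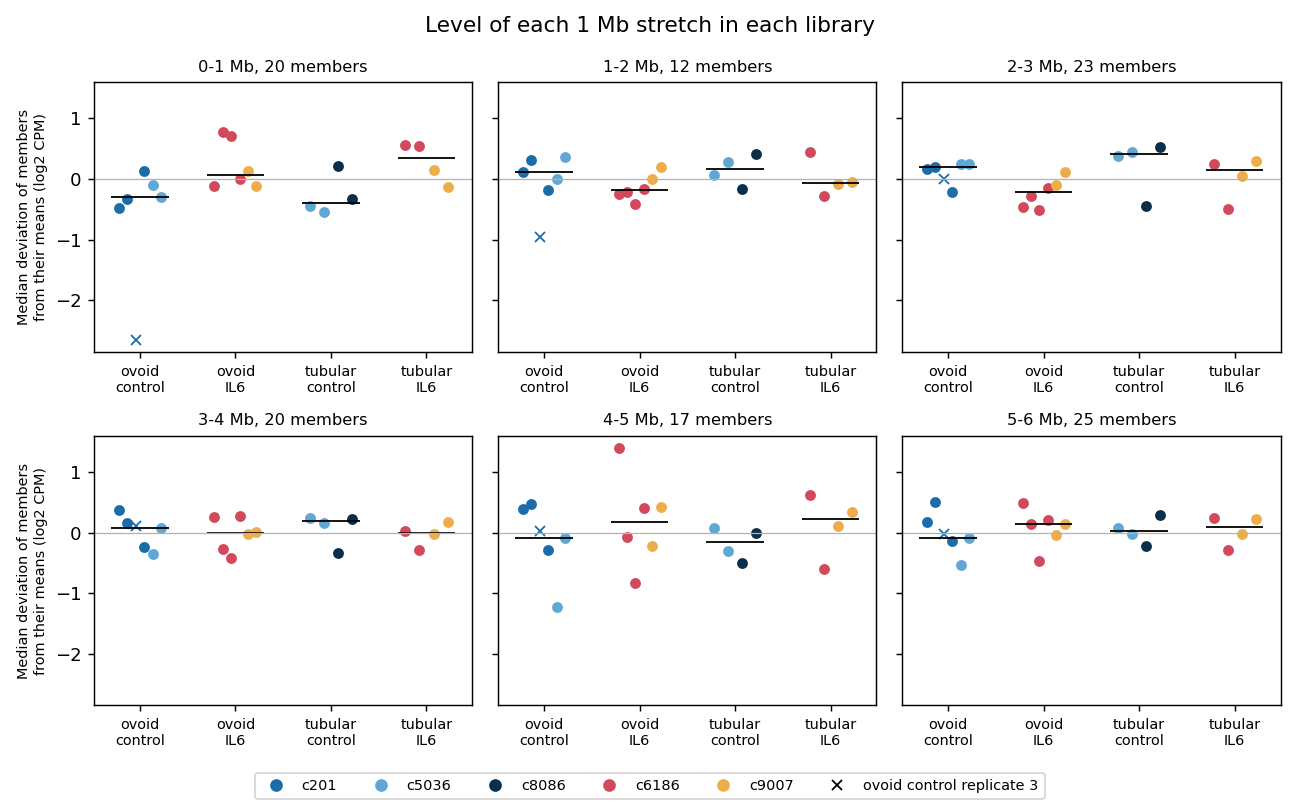
Each point is 1 library: the median over the members of a 1-Mb stretch of the log2 difference from the member's mean, by group and coloured by title code, with the median of a group as a line (ovoid control replicate 3, the cross, left out of it). In the first stretch 4 of the 6 libraries of c6186 lie above 0.5, and in the fifth ovoid IL6 replicate 1 and ovoid control replicate 5 lie farthest out.

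The direction with IL6 went with the level and the exon number of the members, and these differed between stretches. The first stretch held 0 and the third 5 of the members at 100 CPM or more. Median exon numbers were 4, 9.5, 9, 5, 4 and 5 from the first to the sixth. The classes are thus not separate from position, and which of these the direction follows was not tested. Averaged over shapes, 48 of 62 members under 10 CPM, 26 of 42 from 10 to 100 CPM and 2 of 13 at 100 CPM or more were positive. Among all genes the shares were 52.2%, 46.7% and 52.0%. Of members with at most 5 exons 47 of 59 were positive (42.2% of all such genes), and of those with more, 29 of 58 (50.8%). Members that overlap another gene were positive in 31 of 39 cases, with 15 at an unadjusted p under 0.05, where 54.3% of all such genes were positive and 11.6% had such a p. The other members were positive in 45 of 78 cases, with 9 at an unadjusted p under 0.05, beside 47.8% and 10.4% of all such genes.

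Between tubular and ovoid conceptuses the members were close to balanced, with a tract of lower values in the fifth and sixth stretches. Averaged over treatments, 57 members were positive and 60 negative, with a median log2 fold change of -0.02, the same as over all genes (-0.02). Both edgeR and DESeq2 called 0 members and 0% of all genes in each shape comparison. At an unadjusted p under 0.05 there were 9 members in the average (2 higher, 7 lower), beside 4.32% of all genes, 2 among controls (1.64%) and 5 among IL6 conceptuses (2.8%). The median was 0.03 in controls and -0.05 in IL6 conceptuses. Leaving out title codes or conceptuses gave the median of the average either sign, from -0.12 to 0.05.

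All 20 members from 64505119 to 65486952 had a negative log2 fold change for shape averaged over treatments, with values of -1.67 to -0.05 and a median of -0.58, and 5 of them had an unadjusted p under 0.05. The same 20 were negative among IL6 conceptuses (median -0.53, 2 at an unadjusted p under 0.05), and 18 of them among controls. They are low genes, at 1.17 to 33.0 CPM. Of all genes tested under 10 CPM, without the exon and CPM limits of members, only 34.4% had a positive log2 fold change for shape. The level of this tract reached 1.79 in ovoid IL6 replicate 1 and -1.30 in ovoid control replicate 5, and between -0.65 and 0.37 in the 8 tubular libraries, so that tubular conceptuses lay within the ovoid range. In the fifth stretch the median of -0.42 became 0.03 without c201, a code of ovoid controls alone, with 10 of 17 members positive. For the tract of 20 members, 12 stayed negative without c201 (median -0.21), and 0 had an unadjusted p under 0.05. With the title code as a fixed term 19 were negative (median -0.41), again with 0 at an unadjusted p under 0.05. Within c6186 the level of the tract averaged 0.30 in 4 ovoid and -0.16 in 2 tubular libraries. Within c5036 it averaged -0.72 in the ovoid and -0.25 in the tubular pair, and within c9007 0.14 and 0.22, so that the direction was not shared by the 3 codes that hold both shapes.

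Single members differed between shapes by value. The gene at 62131439 to 62138720 had log2 fold changes of 0.45 ± 0.15 averaged over treatments (SE, edgeR adjusted p = 0.914), 0.33 in controls and 0.57 with IL6. It ranged from 20.5 to 37.3 CPM in ovoid control (median 30.4) and from 17.0 to 36.9 CPM in ovoid IL6 conceptuses (median 23.2). Tubular controls had 43.9, 40.3, 27.8 and 54.7 CPM and tubular IL6 conceptuses 57.4, 33.9, 28.6 and 34.3 CPM, overlapping the ovoid values. ENSBTAG00000022813 was higher in tubular IL6 than in ovoid IL6 conceptuses by 1.57 ± 0.53 on the log2 scale (SE, edgeR adjusted p = 0.999971).

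The gene at 60905906 to 60925131 had the largest difference among controls, -3.37, which rested on 1 library. Ovoid control replicate 3 held 67.3 CPM of it and the other ovoid controls 0 to 1.18 CPM. Without that library the value was -0.89. The difference of the IL6 effect between shapes had an unadjusted p under 0.05 in 0 of 117 members, beside 0.632% of all genes, and 0 members and 0% of all genes were called by edgeR or DESeq2. Its median was -0.03.

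Neighbours along the region were more closely correlated over libraries than other pairs of members, by median. Over the 19 libraries with over 1000000 counts, the 116 pairs of neighbouring members had a median Pearson r of 0.42 between their log2 CPM, against 0.10 in the 6670 other pairs of members. Neighbours chosen by the same limits had a median of 0.26 on the rest of chromosome 18 (637 pairs) and of 0.18 on all placed chromosomes (12763 pairs). An r over 0.5 was found in 44.8% of the neighbouring members, 15.0% of their other pairs, 30.1% of neighbours on the rest of the chromosome and 24.2% of neighbours elsewhere. These shares are a description: pairs share libraries, depth and, in part, genes.

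Most of these pairs lie apart on the chromosome. The 103 neighbouring pairs whose spans do not overlap had a median r of 0.40 and the 13 that overlap one of 0.64. Among those without overlap it was 0.35 for 61 pairs on the same strand, 0.39 for 19 divergent and 0.48 for 23 convergent pairs. With the means of group and sex taken out, the median over all 116 pairs was 0.36, against 0.08 for other pairs of members, 0.25 on the rest of the chromosome and 0.17 elsewhere. Of the 116 pairs, 50 had a permutation p under 0.05 after Benjamini-Hochberg adjustment over all pairs, 49 of them with a positive r and 8 with overlapping spans, and 43 pairs had one by Spearman's rho. Of the 50, 38 kept an r over 0.5 with group and sex taken out, and 35 kept one without the 2 libraries farthest from the median. The permutations shuffled all 19 libraries freely, across groups and title codes. Where conceptuses of 1 code share a source, these p-values can be too small.

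The pair with the highest r lay in the third stretch, between 62053844 and 62089250, with the spans 29.0 kb apart on the same strand (r = 0.94, rho = 0.79, permutation adjusted p = 0.000193 for r). It had r = 0.91 without the 2 farthest libraries and 0.95 with group and sex taken out. The next pairs lay in the first stretch, between 60418125 and 60479470 (r = 0.91, rho = 0.89) and between 60268945 and 60344098 (r = 0.90, rho = 0.86), both with a permutation adjusted p = 0.000193 for r. That value rests on the smallest p that 100000 permutations can give. Among libraries over 1000000 counts, the gene at 62053844 was lowest in ovoid IL6 replicate 3 (12.3 CPM) and tubular IL6 replicate 2 (14.1 CPM). Both are of c6186, as are the next above, tubular IL6 replicate 1 (78 counts) and ovoid IL6 replicate 2 (83 counts). Controls lay close to these, with 18.3 CPM in tubular control replicate 3 and 19.4 CPM in the lowest of these ovoid controls. The highest value was 40.7 CPM. Its partner at 62089250 was lowest in the same libraries, at 81.6 and 71.5 CPM, with a highest value of 255 CPM.

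Some neighbours went opposite ways. The pair at 62099120 and 62106899 had r = -0.54 (permutation adjusted p = 0.0454), but rho = -0.14, and r was 0.13 without the 2 farthest libraries, so that it rests on those libraries. The pair at 61238819 and 61483464 had r = -0.45 (permutation adjusted p = 0.110, rho = -0.51), and the pair at 65660240 and 65680940 had r = -0.32 (permutation adjusted p = 0.283, rho = 0.15). By stretch, the median r of neighbours was 0.54, 0.15, 0.38, 0.36, 0.69 and 0.43 from the first to the sixth. In the fifth stretch 14 of 16 pairs had an r over 0.5, and in the second 2 of 11.

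**Figure D5:**
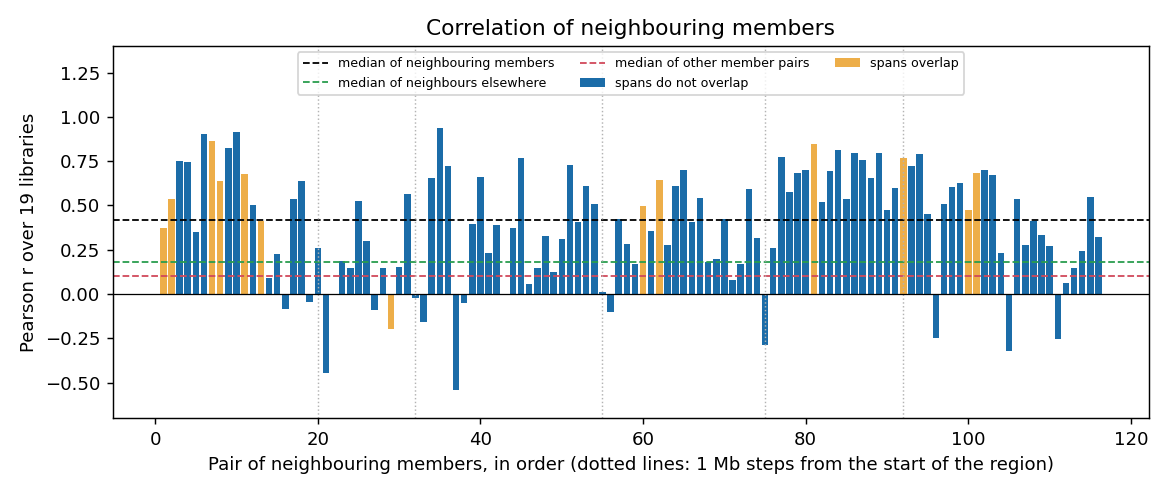
Bars are Pearson r over 19 libraries for the 116 pairs of neighbouring members, in order along the region, in blue where spans do not overlap and in yellow where they do; dashed lines are medians and dotted lines mark steps of 1 Mb. The fifth stretch is almost wholly above 0.5, and the lowest bar is -0.54.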

How the data were processed

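Ribosomal RNA was removed from the RNA of 20 whole conceptuses, and paired reads of 150 nucleotides were taken, per the labels' protocols. Raw counts per Ensembl gene were deposited, made by the authors with featureCounts 2.0.1 over exons, without strand and ignoring duplicates, on Ensembl release 105 of ARS-UCD1.2, per the file headers. The submitters' processing notes also name HISAT2, Picard and SAMtools, with no version (not given in the sources used here). Members and lists were chosen with earlier results of these data known.

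edgeR 4.0.16 (quasi-likelihood, TMM, robust, default low-count filter by group, 4 group terms and sex, all 20 libraries) tested 14875 genes, all 117 members among them. The threshold was a Benjamini-Hochberg adjusted p of 0.05. CPM here carry TMM factors, except the unscaled mean CPM that chose members and gives their mean levels. Standard errors are the log2 fold change over the square root of F. Neighbour correlations used log2 CPM (prior count 2) with 100000 permutations. Other tools were limma 3.58.1 and DESeq2 1.42.0 in R 4.3.3, and matplotlib 3.10.9 in Python 3.11.15. Named members were those past the threshold, or the 2 with the smallest p on each side, the 5 highest per kb, those next to the CPM limit, the 3 neighbour pairs at each end of r and members whose ovoid groups do not overlap. Others are named by position and were chosen after their values were seen. Pathway and cell type marker lists could not be tested, since the files name no genes.

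On simulated counts with 200 genes changed, the ovoid IL6 comparison (14731 genes) recovered 22 of 100 that changed 2-fold and 66 of 98 that changed 4-fold with edgeR. Each library is 1 conceptus. The labels give no replicate numbers, so replicates are numbered in accession order and pair nothing. Depth ran from 329666 to 13940103 counts, and 67 of 117 members had at least 10 counts in every library over 1000000 counts.

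The alternatives tried were DESeq2, RLE factors, other low-count filters (none, or at least 4 libraries above 1 CPM), sample quality weights, a fit without sex, the title code in the model (random or fixed), and leaving out each title code or conceptus. DESeq2 without c6186, c9007 or ovoid control replicate 3 was chosen after seeing the data.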

Additional observations from a re-analysis of the deposited data

Results flagged for a closer look

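Of 104 group values examined (25 named members and the share of counts in members, by group), 14 held a highest or lowest library whose gap to the nearest other exceeded the 95% limit of Dixon's test for that group size. Chance alone flags about 5% of such values. Tubular control replicate 3 (c8086) stood apart in 4 of them. It had 0.611 CPM of the gene at 60094269 (others 0.252 to 0.282), 31.3 CPM of that at 60418125 (19.01 to 20.2), 18.3 CPM of that at 62053844 (37.9 to 40.7), and 0.452% of its counts in members (0.591% to 0.606%).

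Ovoid control replicate 3, the shallowest library, had 67.3 CPM of the gene at 60905906 (23 counts, others 0 to 1.18 CPM). It had 2.92 CPM of that at 62106899 (others 0.826 to 1.53), which is a single count (1) in that library. Tubular IL6 replicate 1 (c6186) had 3.09 CPM of the gene at 62106899 (others 1.002 to 1.354), 5.30 CPM of that at 62159120 (19.7 to 21.5) and 54.3 CPM of that at 64520900 (26.2 to 29.0). Ovoid IL6 replicate 1 (c6186) had 73.9 CPM of the gene at 64948170 (others 25.5 to 37.3) and 6.80 CPM of that at 65375097 (0 to 2.39). Tubular IL6 replicate 4 had 19.9 CPM of the gene at 61915345 (10.4 to 11.8), tubular control replicate 2 had 6.04 CPM of that at 62260692 (3.67 to 3.82), and ovoid control replicate 4 had 4.34 CPM of that at 64940798 (0 to 1.57).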

How the results depend on the processing

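With edgeR on all 20 libraries 0 members were called in each comparison. The counts that moved were these. Counts over all genes tested, members included, follow in brackets. For IL6 in ovoid conceptuses DESeq2 called 1 member (86 of 14875 genes), 3 without ovoid control replicate 3 (155 of 14738), 1 without c6186 (21 of 15422) and 6 without c9007 (741 of 15174), and edgeR without c9007 called 1 (154). For IL6 in tubular conceptuses DESeq2 without c9007 called 2 (266). Averaged over shapes DESeq2 called 3 (143), then 7 without ovoid control replicate 3 (389), 1 without c6186 (37) and 21 without c9007 (2063), and edgeR without c9007 called 5 (344). The cause was not tested. The median r of neighbours was 0.33 (0.334) over all 20 libraries, the shallow one included, against 0.42 over 19, and 0.384 to 0.450 with 1 library left out. The median log2 fold change of members kept its sign in all 37 alternatives for each IL6 comparison (0.05 to 0.34 in ovoid, 0.01 to 0.24 in tubular, 0.08 to 0.27 averaged). For shape averaged over treatments it kept it in 29 of 37. No alternative moved the median of all genes by more than 0.07. With the title code as a fixed term edgeR called 0 members and 0 of 14875 genes for shape, with 3 members and 209 genes at an unadjusted p under 0.05. Depth limits the 22 members under 2 CPM most.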
